A study of Mus musculus with 9 samples.

Results

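A set of JmjC histone demethylases and the related hydroxylase gene Jmjd6 were followed through hypoxia and thyroid hormone treatment in primary mouse cortical neurons. The genes were taken by their symbols: Kdm2a, Kdm2b, Kdm3a, Kdm3b, Kdm4a, Kdm4b, Kdm4c, Kdm5c, Kdm6a and Jmjd6. They are 10 of the 24054 rows of the expression table, and each passed the filter on low values. The set is a part of the family and was chosen with earlier results of these data known. Kdm5b and Kdm6b were left out because some of their values are not whole reads. The wild-type C57BL/6 neurons were kept for 6 days in Neurobasal medium with B27, a supplement whose standard formula contains thyroid hormone. Of the 9 RNA libraries, 3 came from cultures left in normal oxygen (normoxia), 3 from cultures held at 0.2% oxygen for 7 hours (hypoxia), and 3 from cultures held at 0.2% oxygen that also received 10 nM triiodothyronine (T3), the active thyroid hormone. T3 in normal oxygen was not analysed here. Each library carries the number of its column in the deposited table, 1 to 3 for normoxia, 7 to 9 for hypoxia and 11 to 13 for hypoxia with T3. The age of the donor mice, the oxygen level of normoxia and the source of each replicate are not given in the labels. A p-value below therefore rests only on how much libraries differ within their groups, and that spread may be technical. In the main fit the spread is pooled over all 3 groups and drawn towards a trend over all genes tested.

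JmjC demethylases remove methyl groups from histone lysines by an oxidation that needs molecular oxygen, iron and 2-oxoglutarate, the same requirements as the prolyl hydroxylases that sense oxygen for the hypoxia-inducible factors (HIF). The family is therefore studied as a link between oxygen supply and chromatin, and several members, KDM3A above all, are known as HIF target genes in many cell types. The members differ in the mark they remove. KDM3A and KDM3B act on mono- and dimethylated H3K9, KDM4A, KDM4B and KDM4C on trimethylated H3K9 and H3K36, KDM2A and KDM2B on H3K36, KDM5C on H3K4 and KDM6A on H3K27. JMJD6 carries the same fold and is best known as a lysyl hydroxylase of splicing factors. Transcripts were measured here, and neither enzyme activity nor histone marks.

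Promoter sequences are shown for Kdm3a and Jmjd6, whose transcripts rose the most in hypoxia, and for Kdm4c and Kdm6a, whose transcripts lay lowest with T3 relative to normoxia. The region searched was the 250 bases before a RefSeq start on GRCm38 (mm10, assembly GRCm38.p6), and sequences run 5′ to 3′ on the strand of the gene. Capitals mark the core of the HIF response element, searched as ACGTG and GCGTG on both strands, so that CACGT and CACGC are also marked, with overlapping matches merged. Where RefSeq listed several starts, the one with the most matches is shown. For Kdm3a and Jmjd6 only the 30 bases around each match are shown, since 73 and 157 bases of their regions lie in untranslated exon sequence of Kdm3a itself and of Mettl23.
Kdm3a, chr6:71632928-71632957, minus strand: tccgggaggctgtGCGTGtcttgtgagaga
Jmjd6 distal, chr11:116843661-116843690, minus strand: gaggccgggctcgCACGTaggggagtccag
Jmjd6 proximal, chr11:116843450-116843479, minus strand: ccaacatggcgcccaattgGCGTGcatgaa
Kdm4c, chr4:74251629-74251878, plus strand: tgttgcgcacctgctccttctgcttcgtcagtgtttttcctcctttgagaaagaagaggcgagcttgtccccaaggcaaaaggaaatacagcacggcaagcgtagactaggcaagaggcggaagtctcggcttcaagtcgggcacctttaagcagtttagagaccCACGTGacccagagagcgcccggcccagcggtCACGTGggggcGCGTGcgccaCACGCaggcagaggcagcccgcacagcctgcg
Kdm6a, chrX:18162325-18162574, plus strand: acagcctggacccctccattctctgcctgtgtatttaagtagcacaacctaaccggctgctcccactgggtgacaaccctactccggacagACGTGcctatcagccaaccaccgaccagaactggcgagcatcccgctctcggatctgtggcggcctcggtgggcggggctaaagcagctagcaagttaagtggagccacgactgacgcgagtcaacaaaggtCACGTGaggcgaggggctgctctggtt
The Kdm3a promoter shown held 1 match, 27 bases before the RefSeq start. That match lies within the gene as GENCODE draws it, with its 5′ end at 71632990. Jmjd6 held 2, at 228 and 11 bases, and Kdm6a 2, at 159 and 27 bases. The Kdm4c promoter shown held 4 matches, at 85, 53, 42 and 32 bases, and its start lies within the gene as GENCODE draws it. The other Kdm4c promoter, directly before the GENCODE start, held 0, as did 2 of the 3 Kdm3a promoters. At least 1 match stood in 38.6% of 32851 RefSeq promoters of this length, a share per promoter and not for a start chosen by its matches. The matches at 85 and 53 bases in Kdm4c and at 27 bases in Kdm6a were CACGTG, the E-box palindrome that other factors also bind, present in 6.02% of promoters. AGGTCA, the half-site of nuclear hormone receptors, was searched on both strands. In Kdm6a it began 31 bases before the start and overlapped the CACGTG; the Kdm4c promoter that is not shown held 1, at 66 bases, Jmjd6 and Kdm3a had none, and 14% of all promoters held it. Among the other members, the RefSeq table used here held promoters of Kdm2b, Kdm4a and Kdm5c; Kdm2a, Kdm3b and Kdm4b had no entry. Kdm2b held matches to the HIF core at each of its starts, Kdm4a and Kdm5c none.

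Values are the authors' TMM-normalized CPM, reads of a gene relative to the size of its library after TMM scaling. They are not divided by gene length, so levels of different genes are not compared. The columns summed to 1025181 to 1091200 CPM in normoxia, 945822 to 971035 in hypoxia and 967693 to 1000648 with T3. Library depth recovered from the values ran from 17182338 to 33937842 reads. Each of the 90 values of the 10 genes equalled a whole read count within 0.01 reads, from 241 reads of Kdm6a in T3 11 to 7397 reads of Kdm4b in T3 13. Low oxygen showed in the HIF target Slc2a1, at 9.24 to 10.1 CPM in normoxia and 47.8 to 60.0 CPM in hypoxia. The T3 target Hr stood at 4.35 to 5.19 CPM in hypoxia and 30.1 to 34.2 CPM with T3 as deposited, where hypoxia 9 holds a value that is no whole read count. Markers of other cells were also summed. The 10 neuron markers summed to 6641 to 7163 CPM in normoxia, 4922 to 5449 in hypoxia and 4552 to 4714 with T3. Tubb3 alone went from a mean of 2373 CPM in normoxia to 1104 in hypoxia and 701 with T3. The median log2 change of the 10 neuron markers was -0.06 in hypoxia and -0.10 with T3, each against normoxia. The 12 astrocyte markers summed to 322 to 441, 390 to 660 and 493 to 658 CPM. The 8 markers of the oligodendrocyte lineage summed to 41.0 to 144, 79.7 to 213 and 133 to 189 CPM. In hypoxia against normoxia the median log2 change was 0.90 over the 11 astrocyte markers tested and 0.97 over the 8 others. Only 3 of these 11 and 1 of these 8 passed an adjusted p under 0.05, all upward. Of the 10 neuron markers 4 passed, all downward. Libraries of a group differed: astrocyte Slc1a3 ran from 5.00 CPM in normoxia 1 to 45.1 in normoxia 3, and from 16.4 in hypoxia 7 to 82.5 in hypoxia 9. None of the 6 microglia markers passed the filter, and their sum was at most 1.61 CPM. Tmem119 was listed at 0 in every library except normoxia 2, which held 1 read. The ribosomal precursor Rn45s made up between 3.25% and 4.21% of the normoxia columns, between 1.04% and 1.33% of the hypoxia columns and between 1.04% and 2.65% of the T3 columns. Fewer cells of a type and less RNA per cell cannot be told apart in such bulk samples, and a change of a single marker gene can also move a sum. The part of these shifts in the results below was not tested.

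**Figure D1:**
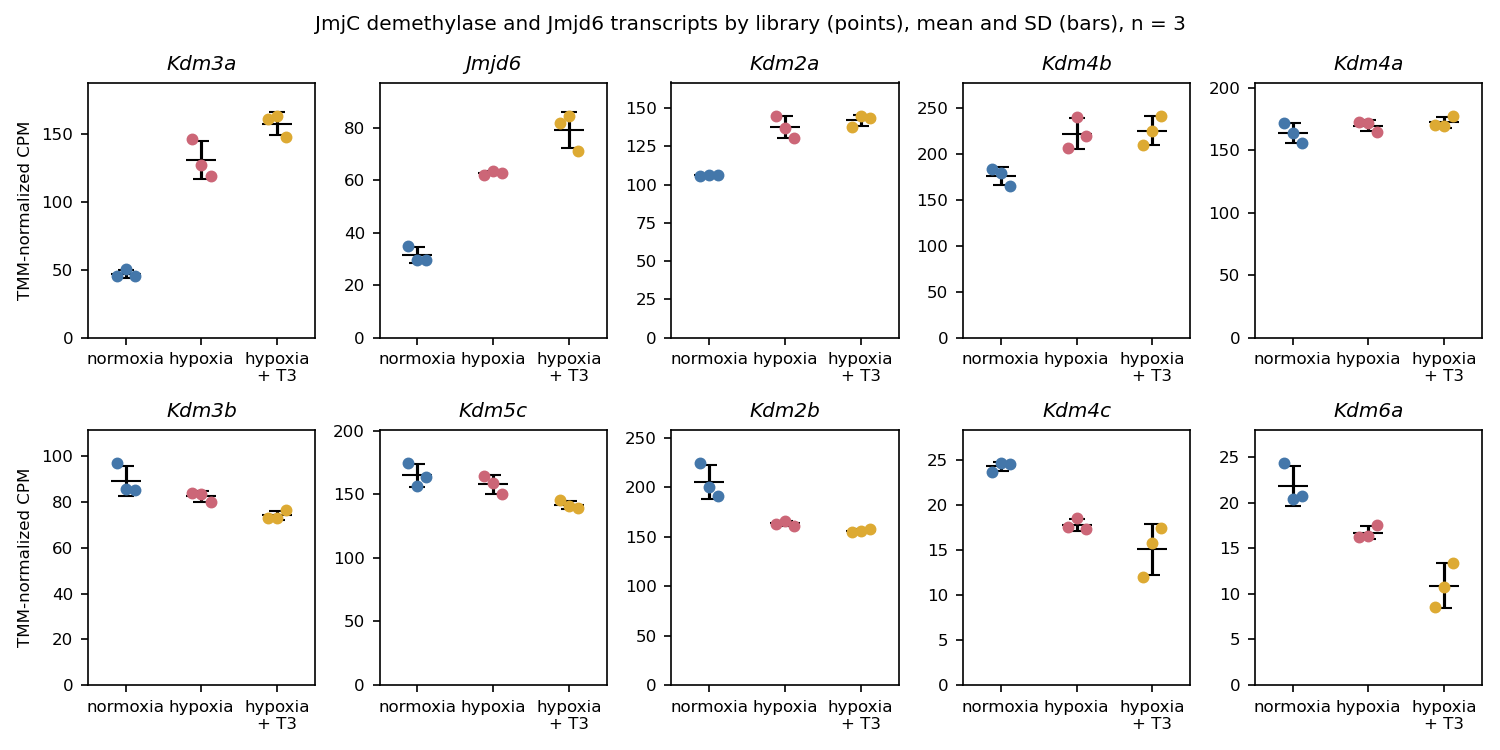
Each panel plots TMM-normalized CPM (from 0) of 1 gene in the 9 libraries, as points by group, with the mean and SD (n = 3) as bars. Kdm3a runs from 45.2 to 50.5 CPM in normoxia and from 119 to 146 CPM in hypoxia, while Kdm4a overlaps between all 3 groups.

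Setting hypoxia beside normoxia tests the response of the neurons to low oxygen. Of the 10 genes, 4 rose (Kdm3a, Jmjd6, Kdm2a and Kdm4b), 2 fell (Kdm2b and Kdm4c), and 4 did not pass the threshold, an adjusted p under 0.05 by limma with Benjamini-Hochberg adjustment over the 12923 genes tested. Of all genes tested 33.6% passed, 14.3% upward and 19.3% downward. The median log2 change was -0.01 over the 10 genes and -0.00 over all genes. A log2 change here is a difference of group means of log2 of CPM plus 1.

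Kdm3a, which clears H3K9 of mono- and dimethylation, had the largest change of the 10. It is encoded on chromosome 6 (71588972 to 71632990, minus strand, GENCODE M21 on GRCm38). Its level was 45.2, 50.5 and 45.6 CPM in normoxia 1 to 3, and 146, 127 and 119 CPM in hypoxia 7 to 9. The lowest hypoxia library stood far above the highest normoxia library. The log2 change was 1.45 (SE 0.08, n = 3, adjusted p = 7.6e-07), and 0.441% of the genes tested changed by more in either direction. Kdm3b, its closest relative, showed no such rise, at 97.0, 85.5 and 85.4 CPM in normoxia and 84.1, 83.5 and 79.9 CPM in hypoxia. These groups did not overlap, a pattern seen in 47.8% of all genes, and the log2 change of -0.11 (95% interval -0.24 to 0.02) did not pass (adjusted p = 0.18). With the columns rescaled to equal sums, which moves the median of all genes to 0.13, the Kdm3b change was 0.03.

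Jmjd6, on chromosome 11 (116837432 to 116843449, minus strand), rose from 34.9, 29.6 and 29.5 CPM in normoxia to 62.1, 63.3 and 62.5 CPM in hypoxia. The 3 hypoxia libraries lay close together and far above every normoxia library. The log2 change was 0.98 (SE 0.08, adjusted p = 2.3e-05), with 2.14% of genes changing by more. Jmjd6 overlaps Mettl23 on the opposite strand by 172 bases. The library kit kept strand, per the labels, but whether counting used it is not stated. Mettl23 stood at 7.20 to 8.47 CPM in normoxia and 7.12 to 8.10 CPM in hypoxia, with a log2 change of 0.01 (adjusted p = 0.95).

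The H3K36 demethylase pair Kdm2a and Kdm2b, both of which bind unmethylated CpG islands through a zinc finger, moved in opposite directions. Kdm2a rose from 106, 106 and 106 CPM in normoxia to 145, 137 and 131 CPM in hypoxia (log2 change 0.37, SE 0.05, adjusted p = 0.00045). Its 3 normoxia libraries were nearly equal. Kdm2b, which recruits a variant Polycomb complex, fell from 224, 200 and 191 CPM to 163, 166 and 161 CPM (log2 change -0.32, SE 0.06, adjusted p = 0.002). The Kdm2b change was -0.18 with equal column sums (adjusted p = 0.016). Neither gene had groups that overlapped. Kdm2b shares 627 bases with Rnf34 on the opposite strand, which had a log2 change of -0.04 (adjusted p = 0.59).

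The 3 members of the Kdm4 group, which act on trimethylated H3K9 and H3K36, each did something different. Kdm4b rose from 184, 180 and 166 CPM to 207, 241 and 220 CPM (log2 change 0.33, SE 0.07, adjusted p = 0.0049). Kdm4c fell from 23.7, 24.6 and 24.6 CPM to 17.5, 18.5 and 17.3 CPM (log2 change -0.43, SE 0.11, adjusted p = 0.015). With equal column sums the Kdm4c change was -0.30 and did not pass (adjusted p = 0.081). Kdm4a stood at 172, 164 and 156 CPM in normoxia and 173, 172 and 164 CPM in hypoxia, groups that overlapped (log2 change 0.05, 95% interval -0.06 to 0.16, adjusted p = 0.46). That setting alone took Kdm4a past the threshold, at 0.19 (adjusted p = 0.0096), so that 5 genes were higher and 1 lower.

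The X-linked pair Kdm5c and Kdm6a did not pass. Kdm5c, an H3K4 demethylase whose loss causes intellectual disability, stood at 175, 157 and 164 CPM in normoxia and 165, 159 and 150 CPM in hypoxia (log2 change -0.06, 95% interval -0.18 to 0.06, adjusted p = 0.39). The groups overlapped, and with equal column sums the sign turned (0.08). Kdm6a, the H3K27 demethylase UTX, stood at 24.4, 20.5 and 20.8 CPM in normoxia and 16.3, 16.3 and 17.5 CPM in hypoxia. Every hypoxia library was below every normoxia library, and the log2 change of -0.36 (95% interval -0.66 to -0.07) fell short of the threshold (adjusted p = 0.057). It passed by DESeq2 on the recovered reads (0.041), with a pseudocount of 5 (0.044), with only the 6 libraries compared (0.016), and without T3 11 (0.021) or T3 13 (0.023). With equal column sums the Kdm6a change was -0.23 (adjusted p = 0.21), and it passed in 5 of the 20 alternatives in all. Their Y-linked relatives Kdm5d and Uty, between which and the X-linked copies reads may be split, stood at 6.10 to 11.3 CPM and at 2.95 to 6.52 CPM over the 9 libraries and did not pass (adjusted p = 0.38 and 0.73).

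**Figure D2:**
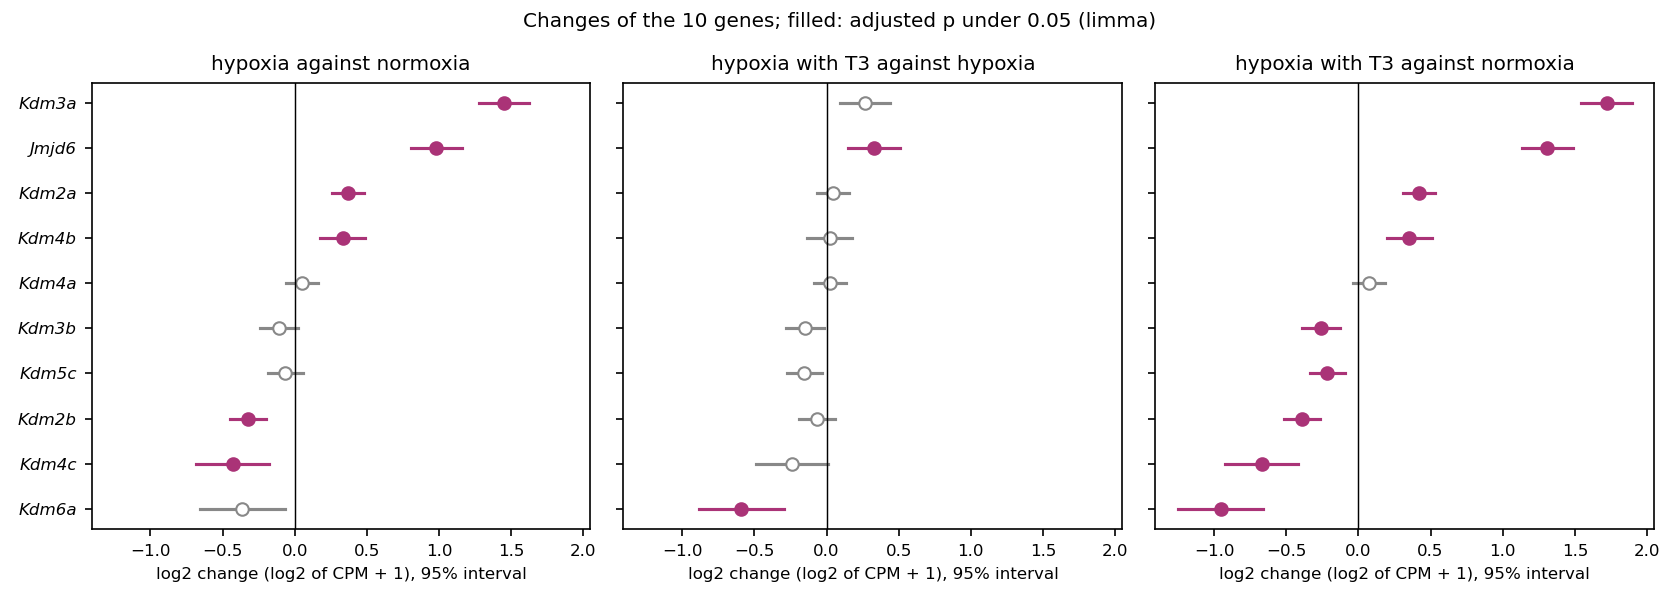
Points are log2 changes on the log2 of CPM plus 1 scale and lines their 95% intervals from limma, for the 10 genes in the 3 comparisons; filled points passed an adjusted p of 0.05. In hypoxia against normoxia the changes run from 1.45 for Kdm3a to -0.43 for Kdm4c, and with T3 against hypoxia only Jmjd6 and Kdm6a are filled.

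Setting hypoxia with T3 beside hypoxia tests the added hormone at a fixed low oxygen. Jmjd6 rose further and Kdm6a fell, 2 of the 10 genes, against 6.48% of all genes tested (2.73% higher and 3.75% lower). The median log2 change was -0.02 over the 10 genes and -0.01 over all genes. The hypoxia libraries are the same as in the first comparison, so the changes of a gene in both are not independent. Jmjd6 stood at 62.1, 63.3 and 62.5 CPM in hypoxia and 81.6, 84.5 and 71.1 CPM with T3, with no overlap (log2 change 0.33, SE 0.08, adjusted p = 0.041). Mettl23 across its start had a log2 change of 0.08 (adjusted p = 0.68). Kdm6a stood at 16.3, 16.3 and 17.5 CPM in hypoxia and fell to 8.56, 10.8 and 13.4 CPM with T3, where the libraries spread more widely (log2 change -0.59, SE 0.13, adjusted p = 0.034). Kdm6a lies on the X chromosome (18162575 to 18279936, plus strand). Of all genes tested, 2.35% changed by more than Kdm6a.

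Neither gene passed without hypoxia 7, hypoxia 8, hypoxia 9, T3 11 or T3 12, where the adjusted p was 0.061 to 0.16 for Jmjd6 and 0.054 to 0.12 for Kdm6a. Jmjd6 also missed without normoxia 2 (0.054). Both missed by limma with no filter on expression, with only the 6 libraries compared and without a variance trend. The changes themselves kept their direction, at 0.28 to 0.40 for Jmjd6 and -0.74 to -0.44 for Kdm6a over the 20 alternatives.

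Kdm3a stood higher with T3 in every library, at 161, 163 and 148 CPM against 146, 127 and 119 CPM in hypoxia, and did not pass (log2 change 0.27, 95% interval 0.09 to 0.44, adjusted p = 0.062). It passed by DESeq2 on the recovered reads (adjusted p = 0.022) and without T3 13 (0.038). Kdm3b stood at 73.2, 72.9 and 76.4 CPM with T3, below each hypoxia library, with a log2 change of -0.15 (95% interval -0.28 to -0.02, adjusted p = 0.13). Kdm5c stood at 145, 141 and 139 CPM with T3 (log2 change -0.15, 95% interval -0.27 to -0.03, adjusted p = 0.1), and passed with equal column sums (-0.19, adjusted p = 0.033). These 3 genes, Kdm2b (154 to 158 CPM with T3), Jmjd6 and Kdm6a had no overlap between the groups. Groups did not overlap for 31.7% of all genes tested. Kdm2b had a log2 change of -0.07 (adjusted p = 0.49).

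The other 4 genes overlapped between hypoxia and hypoxia with T3. Kdm2a stood at 138, 145 and 144 CPM with T3 (log2 change 0.05, 95% interval -0.07 to 0.16). Kdm4a stood at 170 to 178 CPM (0.02, interval -0.09 to 0.13) and Kdm4b at 210 to 242 CPM (0.02, interval -0.13 to 0.18). Kdm4c stood at 11.97, 15.8 and 17.5 CPM, the widest spread of these 4 relative to its mean (log2 change -0.24, interval -0.49 to 0.01). Their adjusted p-values were 0.6, 0.81, 0.88 and 0.2. Without T3 11, the library at 11.97 CPM, the Kdm4c change was -0.09.

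Against normoxia, 9 of the 10 genes differed in hypoxic neurons given T3, 4 upward and 5 downward, where 55.1% of all genes tested did, 25.5% upward and 29.5% downward. Groups of these 9 did not overlap, as for 62.7% of all genes. The median log2 change was -0.07 over the 10 genes and 0.00 over all genes. Kdm3a was higher by 1.72 (SE 0.08, adjusted p = 8.9e-08), Jmjd6 by 1.31 (SE 0.08, adjusted p = 9.1e-07), Kdm2a by 0.42 and Kdm4b by 0.35. Kdm6a was lower, with a log2 change of -0.96 (SE 0.13, adjusted p = 0.00016) and means of 10.9 ± 2.44 CPM with T3 and 21.9 ± 2.16 CPM in normoxia (SD, n = 3). Kdm4c (-0.67), Kdm2b (-0.39), Kdm3b (-0.26) and Kdm5c (-0.22) were lower as well, with adjusted p-values of 0.00022 to 0.006. For Kdm4a the log2 change was 0.07 (adjusted p = 0.23). Kdm3b, Kdm5c and Kdm6a passed here and not in hypoxia alone; their changes between hypoxia and hypoxia with T3 are those given above, of which that of Kdm6a passed. The 9 calls held in each of the 20 alternatives, but with equal column sums the changes of Kdm3b and Kdm5c were smaller, at -0.16 (adjusted p = 0.026) and -0.11 (adjusted p = 0.042). With equal column sums Kdm4a was called as well (0.18, adjusted p = 0.008).

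Ratios of relatives within a library do not depend on how libraries are scaled, and they set the members of a pair against each other. The ratio of Kdm3a to Kdm3b was 0.466, 0.591 and 0.534 in normoxia 1 to 3, 1.74, 1.52 and 1.49 in hypoxia 7 to 9, and 2.20, 2.24 and 1.93 in T3 11 to 13. Each group stood apart from the one before it. The log2 ratio was -0.92 ± 0.17 in normoxia, 0.66 ± 0.12 in hypoxia and 1.08 ± 0.12 with T3 (SD, n = 3). Kdm2a over Kdm2b was 0.471 to 0.555 in normoxia, then 0.811 to 0.888 in hypoxia and 0.891 to 0.927 with T3. The ratio of Kdm4b to Kdm4c was 6.74 to 7.75, 11.8 to 13.0 and 13.8 to 17.5. For these 3 pairs each step, from normoxia to hypoxia and from hypoxia to hypoxia with T3, had a two-sided exact permutation p of 0.1. That is the smallest that 3 libraries against 3 allow. Where both genes had already moved in opposite directions with no overlap, this p was fixed in advance and adds nothing. That holds for Kdm3a and Kdm3b at each step. From normoxia to hypoxia it also holds for Kdm2a and Kdm2b and for Kdm4b and Kdm4c. The ratio of Kdm4b to Kdm4a was 1.06 to 1.10 in normoxia and 1.198 to 1.40 in hypoxia (exact permutation p = 0.1). With T3 it was 1.23 to 1.36 and overlapped with hypoxia (exact permutation p = 1). The raw ratios of CPM carry the lengths of both genes and are comparable between libraries only.

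**Figure D3:**
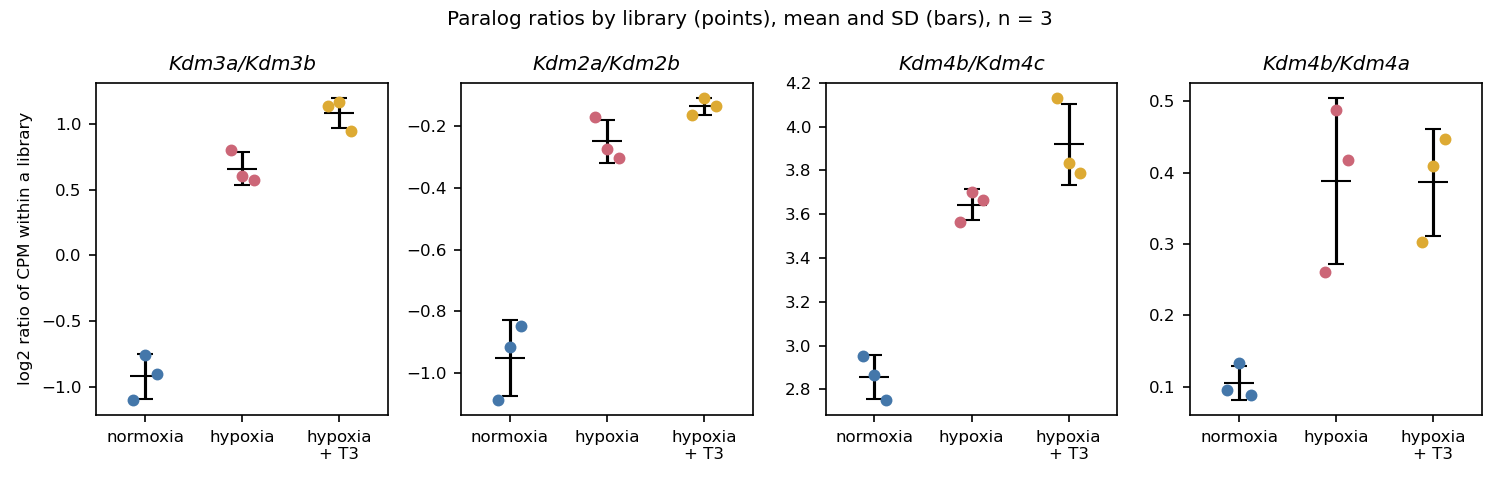
Each panel plots the log2 ratio of CPM of a pair of relatives within each of the 9 libraries, as points by group, with mean and SD (n = 3) as bars; the axes differ and do not start at 0. The Kdm3a/Kdm3b ratio runs from -0.92 in normoxia to 0.66 in hypoxia and 1.08 with T3, and Kdm4b/Kdm4a overlaps between hypoxia and T3.

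A further 21 genes of JmjC proteins were looked up, and all passed the filter. Of their rows 4, Kdm5b, Kdm6b, Kdm7a and Hr, held 13 values that were not whole reads and are described apart. The median log2 change of all 21 was -0.14 in hypoxia against normoxia and -0.08 with T3 against hypoxia, where it was -0.00 and -0.01 over all genes. Of the 17 others, 5 fell in hypoxia and none rose by limma, where 19.3% and 14.3% of all genes did; 9 had an unadjusted p under 0.05, as did 44.7% of all genes, and edgeR and DESeq2 also called 5 lower and 0 higher. Kdm7a is outside this count for 2 values with T3, but its normoxia and hypoxia values are whole reads, and it rose (log2 change 0.84, adjusted p = 0.00031, or 0.00077 with only the 6 libraries compared). Kdm6b was higher as deposited (0.30, adjusted p = 0.0041), but its values in hypoxia 9, T3 11 and T3 12, all part of that fit, are off the read step. The 5 that fell were Jarid2, a catalytically inactive partner of Polycomb complex 2 (log2 change -0.59, adjusted p = 0.018), Hspbap1 (-0.49, adjusted p = 0.017), Jmjd4 (-0.48, adjusted p = 0.00045), the X-linked demethylase gene Phf8 (-0.46, adjusted p = 0.0066) and Jmjd1c (-0.39, adjusted p = 0.015). With equal column sums 3 of the 17 were higher and 2 lower, and Jmjd1c (adjusted p = 0.11), Hspbap1 (0.058) and Jarid2 (0.066) did not pass. Without hypoxia 7 the same 3 did not pass either (adjusted p = 0.053, 0.058 and 0.062). Jarid2 also missed without normoxia 2 (0.059), and Hspbap1 without normoxia 1 (0.056) or normoxia 2 (0.064). Hif1an, the asparaginyl hydroxylase that restrains HIF, did not pass (log2 change 0.02, adjusted p = 0.85), but did with equal column sums (0.15, adjusted p = 0.035). With T3 against hypoxia limma called 0 of the 17; 2 had an unadjusted p under 0.05, where 27.8% of all genes did, and edgeR and DESeq2 also called 0. Without T3 13, Jarid2 passed (-0.56, adjusted p = 0.029).

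**Figure D4:**
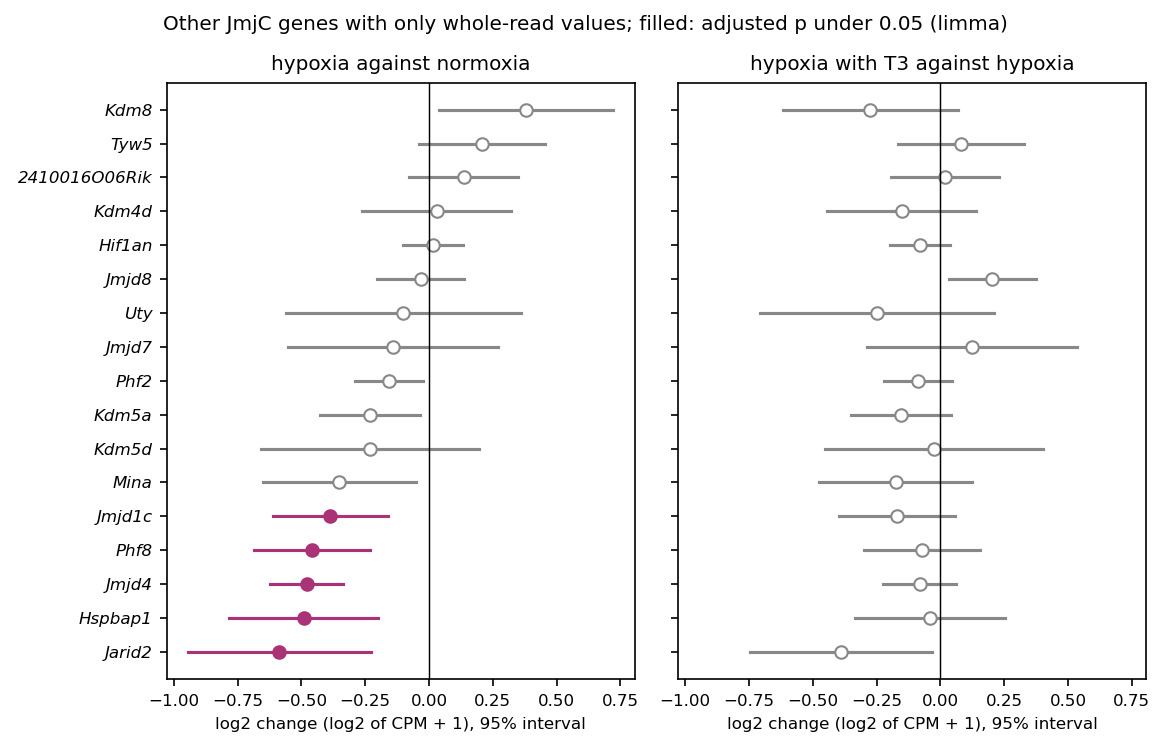
Points are log2 changes on the log2 of CPM plus 1 scale with 95% intervals from limma, for the 17 other JmjC genes with whole reads only, in hypoxia against normoxia and in hypoxia with T3 against hypoxia; filled points passed an adjusted p of 0.05. From Jmjd1c (-0.39) to Jarid2 (-0.59), 5 genes are filled in the first panel and 0 in the second; with equal column sums 2 of the 17 were lower and 3 higher in hypoxia.

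In Kdm5b, 7 of 9 values were not whole reads, those of normoxia 1 and of all hypoxia and T3 libraries. They stood as deposited at 151, 169 and 157 CPM in normoxia, 193, 5.57 and 183 CPM in hypoxia and 155, 163 and 166 CPM with T3. The value in hypoxia 8 lies far below its group, and Kmt2a and Kmt2c hold the same 5.57 CPM in that library. Kmt2a and Kmt2d also share their values in hypoxia 7, hypoxia 9, T3 11 and T3 12. Shared values of this kind cannot be read as separate measurements of these genes. The log2 change of Kdm5b in hypoxia was -1.37 with hypoxia 8 and 0.24 without it, and neither is read as a result. Kdm6b, the other H3K27 demethylase, held 3 values that were not whole reads, in hypoxia 9, T3 11 and T3 12. It stood at 159, 150 and 139 CPM in normoxia, 189, 176 and 187 CPM in hypoxia and 269, 242 and 252 CPM with T3, as deposited. Kdm7a held 2, in T3 12 and T3 13, and stood at 7.99 to 8.90, 13.7 to 17.6 and 10.6 to 12.2 CPM. Of all 24054 rows, 35 held such values, 142 in all. The p-values given for Kdm6b, and for Kdm7a in the fit of all 9 libraries, rest in part on such values. They are not used here as support.

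The enzymes that write the marks, and partners of the members, were read from further lists, counting only genes with whole reads. Their counts stand beside 14.3% of all genes higher and 19.3% lower in hypoxia. Values that are not whole reads left out Ezh1 and Ezh2, the methyltransferases of the H3K27 complex. They also left out Kmt2a, Kmt2b, Kmt2c, Kmt2d and Setd1b from the H3K4 list and Setd2 from the H3K36 list. The H3K27 genes counted are thus subunits without the methyltransferases themselves. Of 7 H3K9 methyltransferase genes, 2 fell in hypoxia, Suv39h1 (log2 change -0.40, adjusted p = 0.00092) and Ehmt1 (-0.36, adjusted p = 0.002), which encode a trimethylating and a dimethylating enzyme. With equal column sums 2 were lower and 3 higher. Of 6 genes listed as H3K36 methyltransferases 3 fell, Setd3 (-0.28), Whsc1 (-0.25) and Smyd2 (-0.18). With equal column sums 1 was lower, Setd3, whose established substrate is a histidine of actin rather than H3K36. Whsc1 (adjusted p = 0.099) and Smyd2 (0.54) did not pass in that setting. The Smyd2 call was lost without normoxia 1 (adjusted p = 0.067), normoxia 3 (0.064), hypoxia 7 (0.089) or hypoxia 8 (0.058). Of 10 genes of H3K4 methyltransferases and their subunits 2 rose, Dpy30 (0.35, adjusted p = 0.0064) and Setd1a (0.28, adjusted p = 0.0038), and with equal column sums 7. Of 8 genes of the H3K27 methyltransferase complex, Suz12 rose (0.24, adjusted p = 0.024) and Mtf2 fell (-0.45, adjusted p = 0.013), against 5 higher and 0 lower with equal column sums. The call on Suz12 was lost without normoxia 2 (0.074), normoxia 3 (0.069), hypoxia 7 (0.085) or hypoxia 9 (0.066), and that on Mtf2 without normoxia 2 (0.051). Among 9 partners of KDM2B in its Polycomb complex, Usp7 fell (-0.17, adjusted p = 0.028), a call lost when any normoxia or hypoxia library was left out (adjusted p = 0.055 to 0.073). With equal column sums Usp7 stood at -0.03 (adjusted p = 0.74), and 2 of the 9 were higher and 0 lower. Of the flavin-dependent demethylases, Kdm1a fell (-0.16, adjusted p = 0.035), a call lost with equal column sums (0.8) and without any 1 of 6 libraries, hypoxia 7 (0.061), hypoxia 8 (0.098), hypoxia 9 (0.074), normoxia 1 (0.11), normoxia 2 (0.079) or T3 12 (0.052). Kdm1b had a log2 change of -0.16 (adjusted p = 0.11). With T3 against hypoxia 1 gene of these lists passed, the H3K36 methyltransferase Nsd1, from a mean of 181 to a mean of 143 CPM (log2 change -0.34, adjusted p = 0.04). That call was lost without hypoxia 7 (0.1), hypoxia 8 (0.15), T3 11 (0.15) or T3 12 (0.11), with no filter on expression (0.077), with only the 6 libraries compared (0.051) and without a variance trend (0.084). Usp7 did not pass (-0.19, adjusted p = 0.051), and did by DESeq2 (0.014), with equal column sums (0.043), with a mean of at least 5 CPM (0.046) and without T3 13 (0.043). Ehmt1 passed only without T3 13 (adjusted p = 0.038). At an unadjusted p under 0.05 stood 2 of 7 H3K9 genes, 0 of 8 H3K27 genes, 1 of 10 H3K4 genes, 5 of 6 H3K36 genes, 3 of 9 KDM2B partners and 0 of 2 flavin-dependent demethylases, beside 27.8% of all genes. Both edgeR and DESeq2 called 0 in these lists except in H3K36 (1 and 2 genes) and, by DESeq2, 1 KDM2B partner.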

How the data were processed

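The deposited table holds 1 column for each of the 9 libraries; its unit is a signal made by the authors, CPM after TMM scaling. Tools named in the submitters' processing notes are RSEM 1.2.15, Bowtie2 2.1.0 and edgeR, with the build mm10; filters, the annotation and the strand setting of counting are not given in the sources used here. Values are whole multiples of 1 read in 99.89% to 100.00% of each column, which gave the depths and recovered reads; reads are not molecules. Columns were assigned to groups by their headers; their numbers match no replicate number in hypoxia or T3, so libraries were not paired. An unnamed column with 4 values, none in these 10 rows, was not used (1 column).

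All 9 libraries were fitted together with limma 3.58.1 in R 4.3.3 on log2(value + 1), with a variance trend and 6 residual degrees of freedom, over 12923 genes above 1 CPM in at least 3 libraries. Tests were two-sided. Alternatives on recovered reads used edgeR 4.0.16 quasi-likelihood and DESeq2 1.42.0, without the 35 rows off the read step. The genes named are the 10 members, rows left out for values that are not whole reads, members of the JmjC list past the threshold, up to 4 members of each chromatin list by adjusted p, and label checks. Hif1an, Kdm5d, Uty, Mettl23 and Rnf34 were added after their values were seen. Members and lists were chosen with earlier results of these data known.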

Additional observations from a re-analysis of the deposited data

How the results depend on the processing

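Each of the 30 results, 10 genes in 3 comparisons, was recomputed under 20 alternatives. In 22 of them no call changed, in 8 at least 1 did, and no called change reversed. In hypoxia against normoxia 6 genes passed, and 6 or 7 did when any 1 library was left out. With T3 against normoxia 9 passed, and 9 did without any 1 library. With T3 against hypoxia 2 passed, and the count ranged from 0 to 3 without 1 library. By limma it was 0 with no filter on expression, 0 when only the 6 libraries compared were fitted and 0 without a variance trend, each with 5 of the 10 genes at an unadjusted p under 0.05 (27.8% of all genes in the fit reported); edgeR called 2 and DESeq2 3. Over all genes this comparison called 838; it called 172 with no filter, 275 with only the 6 libraries, 234 without a variance trend, 1728 by DESeq2 and, without 1 library, from 31 (T3 12) to 1827 (T3 13). In hypoxia against normoxia 1846 genes were higher and 2497 lower, and 3973 and 1232 with equal column sums; with T3 against normoxia 3300 and 3817, and 4527 and 2856; with T3 against hypoxia 353 and 485, and 284 and 697. The Kdm5b change in hypoxia was 0.24 without hypoxia 8 and ranged down to -2.20 without hypoxia 7. No paired analysis was possible because the numbers 7 to 9 and 11 to 13 in the column headers are not replicate numbers that the labels use. Causes of these differences between settings were not tested.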
